A study of Danio rerio with 3 samples.

Results

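Pigment cell genes were followed in whole zebrafish embryos exposed to Aroclor 1254, each set against control embryos. The 10 genes were taken by gene symbol from the array's probe table, out of 14462 genes that it names. They are the melanin synthesis genes tyr, dct and tyrp1b, the melanosome genes pmela, slc24a5 and slc45a2, the regulators mitfa and sox10, and the pteridine synthesis genes gch2 and xdh. Of these, 9 had a probe, 8 had a value in at least 1 sample and 5 (dct, tyrp1b, slc24a5, sox10 and gch2) had a value in all 3 samples. No probe was matched to pmela, which was not analysed here, and none of the 3 probes of tyr had a value. The mean ratio of slc45a2 was the farthest from 0, and its values had the same sign in both samples that measured it, although it missed the threshold of the test. For dct, slc24a5, sox10 and gch2 the SD over samples exceeded the size of the mean ratio.

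Exposed embryos were kept with Aroclor 1254, a commercial mixture of polychlorinated biphenyls, at 71.9 mg/L from 24 hpf (hours post fertilization) for 24 h. Control embryos stayed in fish medium at 28.5 °C, and whole embryos were collected at 48 hpf. The strain is not given in the labels, which also do not say how many embryos or clutches made up a sample. RNA of exposed and of control embryos was hybridised together in each of 3 samples, labelled as biological replicates, so a value is the log2 ratio of the pair. The p-values test whether the mean ratio of a gene departs from equal RNA in exposed and control embryos. Their error rests on the spread between these 3 samples, that of a gene being moderated towards the spread of all tested genes. For genes measured in all samples the moderation weighs more (4.6 degrees of freedom) than the gene's own spread (2). As embryos and clutches per sample are not given, that spread may be technical.

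Zebrafish embryos make their pigment in 3 neural crest lineages. Melanophores build black melanin from tyrosine inside melanosomes, xanthophores hold yellow pteridines made from guanosine triphosphate, and iridophores hold reflecting plates of purines. The transcription factor sox10 acts in the crest cells that give rise to all of them, and mitfa, one of its targets, is needed for the melanophore lineage. Melanin is also made in the retinal pigment epithelium, which does not come from the crest, so the melanosome genes are read from both sources in whole embryos. By the time of collection these lineages have normally begun to differentiate.

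Signs are those of the deposited values. The design includes dye swaps, and neither the labels nor the table says which condition is the numerator, so no direction of exposure is attached to any ratio. The check gene cyp1a, a monooxygenase whose transcription is known to be induced by dioxin-like biphenyls, stood at 7.07, 8.61 and 8.02 in replicates 1, 2 and 3, so the samples had 1 sign for it. Over the 10200 rows measured in all samples the Pearson correlation between samples was 0.302 for replicates 1 and 2, 0.49 for 1 and 3 and 0.332 for 2 and 3. Replicate 2 had the widest ratios (SD 0.97 over these rows, against 0.82 in replicate 1 and 0.62 in replicate 3) and the fewest values. Each gene name depends on a renumbering of the rows by their position on the array grid, an inference from the values. Under it, having a value correlated at 0.388 over 8597 pairs of probes of 1 gene and the mean ratio at 0.76 over 2169 measured pairs, compared with -0.003 and 0.025 with the numbers as given.

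The enzyme genes dct, gch2 and tyrp1b had a value for every probe in every sample. Of the 18 probes, 12 had a value in replicate 1 (66.7%), 8 in replicate 2 (44.4%) and 11 in replicate 3 (61.1%). Over all 21060 probes with a gene these shares were 44.4%, 37.1% and 42.5%. The 3 probes measured in replicate 3 but not in replicate 2 belonged to mitfa (2 probes) and slc45a2 (1 probe), and the single xdh probe had a value only in replicate 1. Of all 11852 rows with a value in replicates 1 and 3, 13.9% had none in replicate 2. The reason for a missing value is not given in the sources used here, and missing values were not read as absence of a transcript.

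None of the 5 genes measured in all samples passed at an adjusted p of 0.05 in limma, where 1 of all 5897 genes passed (0.0170%). At an unadjusted p of 0.05 in limma 0 of the 5 passed as well, beside 16.2% of all genes. A fit that also takes genes with values in only 2 samples adds mitfa and slc45a2 without replicate 2. There, 0 of 7 passed after adjustment (0.0148% of 6777 genes) and 1 of 7, slc45a2, did so before it (17.6%). As single rows, 0 of the 8 rows measured in all samples passed (0.0686% of 10200 rows), and 0 did at an unadjusted p of 0.05 (18.9%). Of the 5 genes, 3 kept 1 sign across the samples, positive in slc24a5 and negative in dct and tyrp1b, next to 43.0% of all genes (19.6% positive and 23.5% negative). No gene of the 5 reached 1.5-fold in 1 direction in all samples (2.58% of all genes positive, 2.75% negative).

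**Figure D1:**
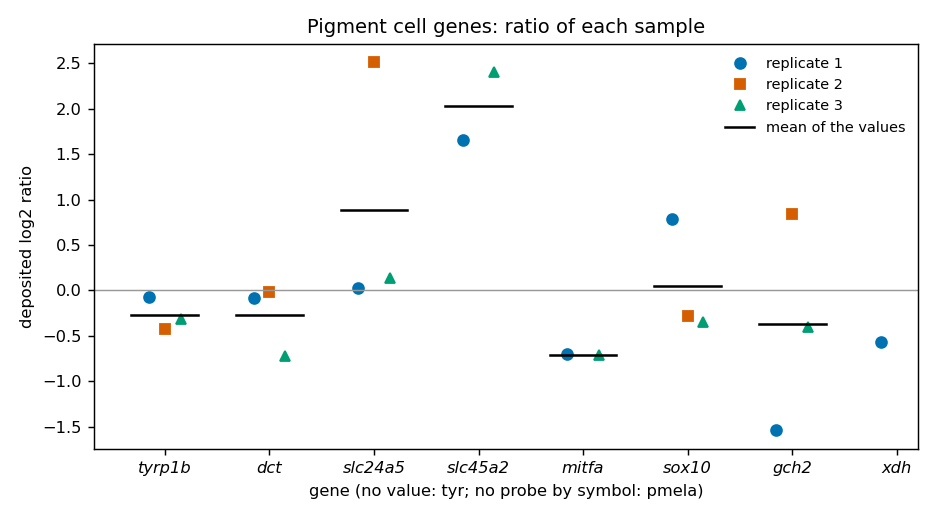
Deposited log2 ratio (vertical axis) of the 8 pigment cell genes with a value (horizontal axis), with 1 marker per sample and a bar at the mean of the values where there were at least 2. Both slc45a2 values lie far above 0, at 1.66 and 2.40, the replicates of sox10 and gch2 fall on both sides of 0, and slc24a5 is far from 0 in replicate 2 alone.

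Of the melanin synthesis enzymes, dct and tyrp1b had small mean ratios with intervals on both sides of 0, and dct was farther from 0 in replicate 3. Dopachrome tautomerase, encoded by dct, turns dopachrome into a melanin precursor and is an early marker of melanoblasts. Its ratio was -0.08, -0.02 and -0.72 in replicates 1, 2 and 3. It was thus near 0 in the first pair of samples and 1.65-fold from 0 in replicate 3, where 8.2% of measured genes had a lower value. The mean was -0.27 ± 0.39 (SD, n = 3; 95% interval -0.90 to 0.36, adjusted p = 0.613 in limma), and it was -0.05 without replicate 3. All 3 dct probes had a value in every sample and were lowest in replicate 3. They stood there at -0.66, -0.62 and -0.89, and in replicates 1 and 2 no probe was farther from 0 than 0.19. Their signs differed in replicate 1 (-0.12, -0.18 and 0.07) and in replicate 2 (-0.02, 0.16 and -0.19). The negative sign of dct in replicates 1 and 2 is thus that of the average only.

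The gene tyrp1b encodes a melanosomal enzyme of the tyrosinase family. Its only probe read -0.07, -0.43 and -0.32 in replicates 1, 2 and 3. These values were all negative and small, and their spread was larger than that of only 13.5% of genes. The mean of -0.27 ± 0.18 (SD, n = 3; 1.21-fold) had a 95% interval of -0.85 to 0.30 and an adjusted p of 0.575 in limma. Tyrosinase itself, the rate-limiting enzyme encoded by tyr, could not be set beside them, because its 3 probes had no value in any sample.

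The melanosome transporters gave the gene values farthest from 0, slc45a2 in both its samples and slc24a5 in replicate 2 alone. The gene slc45a2 encodes a melanosomal membrane transporter, and its loss gives the zebrafish albino phenotype. Its 1 probe read 1.66 in replicate 1 and 2.40 in replicate 3, with no value in replicate 2. These are 3.16-fold and 5.28-fold, above 97.8% and 99.8% of the genes measured in the same sample. The mean was 2.03 ± 0.52 (SD, n = 2; 4.09-fold, 95% interval 1.16 to 2.90), with an adjusted p of 0.12 in limma over genes measured in at least 2 samples. That interval uses the moderated error. With the ordinary statistic, which uses only the spread of its own 2 values, p was 0.115 before and 0.526 after adjustment. With array weights, which give replicate 3 a weight of 2.18 and replicates 1 and 2 weights of 0.97 and 0.47, the mean of 2.17 passed (adjusted p = 0.0356 in limma), as did 1.27% of the 6777 genes. With 1 probe, the ratio has no check from another spot.

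The cation exchanger slc24a5, altered in the zebrafish golden mutant, sits in the same organelle pathway. It was measured by 1 of its 2 probes, at 0.02, 2.51 and 0.14 in replicates 1, 2 and 3. Only replicate 2 was far from 0, 5.71-fold and above 99.2% of its genes, while replicates 1 and 3 were no farther from 0 than 0.14. The mean of 0.89 ± 1.41 (SD, n = 3; 95% interval -0.31 to 2.10, adjusted p = 0.408 in limma) was 0.08 without replicate 2, and the spread was larger than that of 97.2% of genes. In the samples that measured both transporters, slc45a2 exceeded slc24a5 by 1.64 in replicate 1 and by 2.26 in replicate 3 on the log2 scale, which was not tested.

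**Figure D2:**
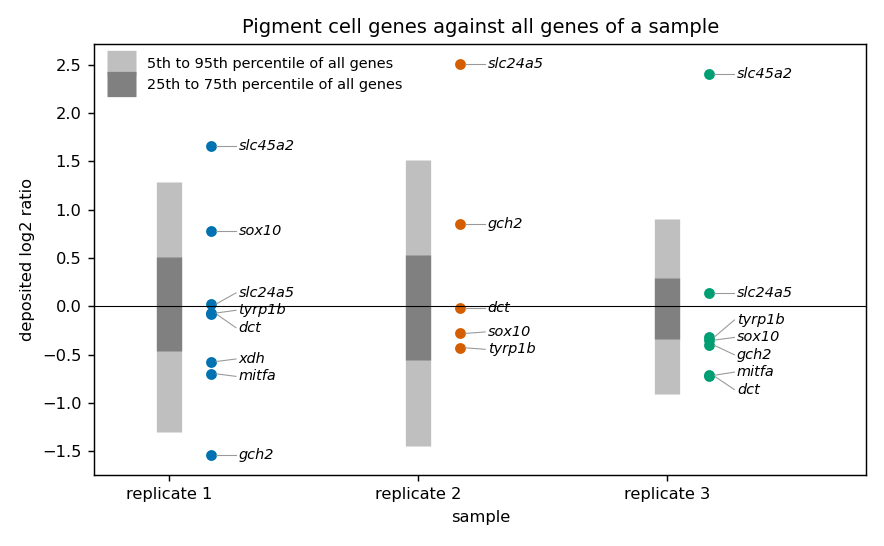
Deposited log2 ratio (vertical axis) in each sample (horizontal axis), with grey bars for the 5th to 95th and the 25th to 75th percentile of all genes measured in it and points for the pigment cell genes. Outside the 5th to 95th percentile lie slc45a2 and gch2 in replicate 1, slc24a5 in replicate 2 and slc45a2 in replicate 3.

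Both regulators were negative in replicate 3, and in replicate 1 they had opposite signs. The gene mitfa, a basic helix-loop-helix factor whose loss removes melanophores in the zebrafish nacre mutant, had a value for 2 of 3 probes in replicates 1 and 3 and for none in replicate 2. As a gene it stood at -0.70 in replicate 1 and -0.71 in replicate 3, lower than all but 16.4% and 8.4% of genes there. Its mean of -0.71 ± 0.01 (SD, n = 2; 1.63-fold) had a 95% interval of -1.49 to 0.08 and an adjusted p of 0.313 in limma over genes measured in at least 2 samples. The probes were farther apart than these averages. One read -1.12 and -1.34 in replicates 1 and 3 and the other -0.28 and -0.09, a larger difference than that between the samples.

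The gene sox10 encodes an SRY-related factor of neural crest, pigment precursors and glia. One of its 2 probes was measured, at 0.78, -0.28 and -0.35 in replicates 1, 2 and 3. Replicate 1 was positive and above 85.3% of genes, and the others were negative. The mean of 0.05 ± 0.63 (SD, n = 3; 95% interval -0.69 to 0.79, adjusted p = 0.947 in limma) was -0.32 without replicate 1. Its sign also turned with array weights (-0.038) and with equal scaling (-0.0029).

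Of the pteridine genes of xanthophores, gch2 was measured in all samples and xdh in 1. GTP cyclohydrolase, the first enzyme of the pathway and an early marker of xanthoblasts, is encoded by gch2. Its ratio was -1.54, 0.85 and -0.41 in replicates 1, 2 and 3. Replicate 1 was 2.91-fold negative, with 3.3% of genes lower, and replicate 2 was 1.80-fold positive, with 84.4% of genes lower. The mean of -0.37 ± 1.20 (SD, n = 3; 95% interval -1.43 to 0.70, adjusted p = 0.695 in limma) was 0.22 without replicate 1 and -0.97 without replicate 2. The spread between samples was larger than that of 95.3% of genes.

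Both gch2 probes put the samples in the same order. The first read -2.13, 1.14 and -0.58 and the second -0.95, 0.55 and -0.23 in replicates 1, 2 and 3. The signs were thus the same on both spots in each sample, with the second probe closer to 0 throughout. The gap between the probes was 1.18, 0.59 and 0.35 in the 3 samples, while the median gap over 1414 genes with several measured rows was 0.41, 0.40 and 0.38. For dct the largest gap among its probes was 0.25, 0.34 and 0.27. Xanthine dehydrogenase, a later enzyme of pteridine synthesis encoded by xdh, read -0.57 in replicate 1 and had no value elsewhere, so it has no error.

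**Figure D3:**
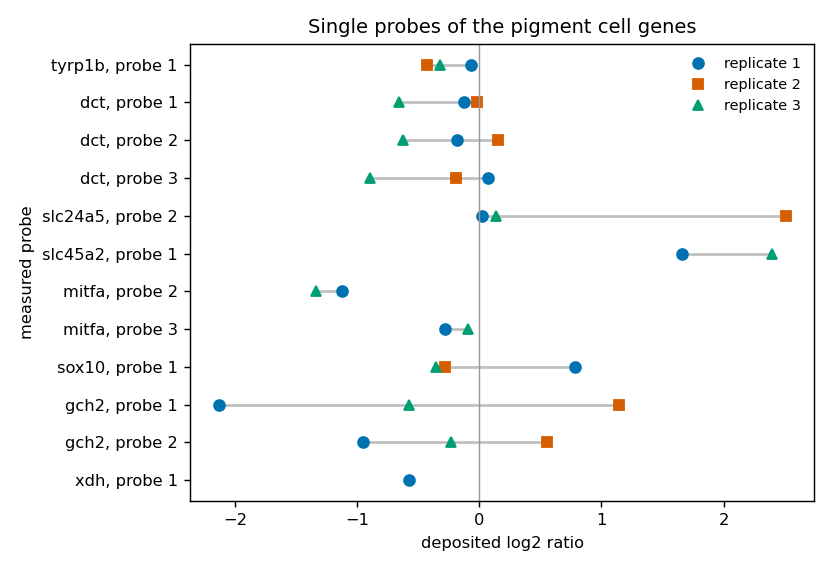
Deposited log2 ratio (horizontal axis) of each measured probe of the pigment cell genes (vertical axis), with 1 marker per sample joined by a grey line. The dct probes all have replicate 3 lowest, the gch2 probes all have replicate 1 lowest and replicate 2 highest, and the mitfa probes stand apart at -1.12 and -1.34 against -0.28 and -0.09.

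The wider pathway lists held no gene that passed at an adjusted p of 0.05 in limma in either direction. The list of melanin synthesis and melanosome genes names 43 genes, of which 31 had a probe and 15 a value in all samples. In limma 3 of these 15 were at an unadjusted p under 0.05, all positive. This share is near the 16.2% of all 5897 genes in either direction, 443 genes positive and 511 negative. The list median of the mean ratios was 0.004, beside -0.04 over all genes. The 3 genes were ap3d1, a subunit of the AP-3 adaptor that carries cargo to melanosomes and other lysosome-related organelles, and bloc1s1 and dtnbp1a, both subunits of the BLOC-1 complex.

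For ap3d1 the ratio was 1.05, 0.83 and 1.20 in replicates 1, 2 and 3. All 3 samples were thus at least 1.5-fold positive, with a mean of 1.03 ± 0.19 (SD, n = 3; adjusted p = 0.173 in limma). The ratio of bloc1s1 was 1.28, 0.96 and 0.46, and that of dtnbp1a 0.57, 0.52 and 1.12. Their means were 0.90 ± 0.41 and 0.73 ± 0.33 (SD, n = 3 each; adjusted p of 0.213 and 0.247 in limma). The paralog dtnbp1b had the opposite sign, at -0.52, -0.31 and -0.30, and the BLOC-1 genes bloc1s3 and bloc1s6 had means of 0.004 and 0.003. Among genes closer to the pigment itself, pmelb, which encodes an amyloid matrix protein of melanosomes, stood at -0.22, -0.07 and 0.07. The melanosomal receptor gene gpr143, mutated in human ocular albinism, stood at -0.26, 0.58 and 0.04.

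Of the pteridine and carotenoid list, 8 of 21 genes had a value in all samples, and 16 had a probe. The largest statistic was that of gchfr, which encodes the feedback regulator of GTP cyclohydrolase. It read 1.23, 1.43 and 1.45 in replicates 1, 2 and 3, close together and all positive. Its mean of 1.37 ± 0.12 (SD, n = 3; 2.58-fold) had an adjusted p of 0.123 in limma. In the same samples gch2 changed sign between replicates. The gene qdpra, for dihydropteridine reductase, which recycles the pterin cofactor, was also positive throughout (0.68, 1.01 and 0.31, mean 0.67 ± 0.35, SD, n = 3; adjusted p = 0.279 in limma). Of the 8 genes, these 2 were at an unadjusted p under 0.05 in limma, both positive. Over all 5897 genes 16.2% were so in either direction, 443 of them positive.

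The carotenoid genes of that list were spread by replicate 2. The gene scarb1, for a scavenger receptor that takes up carotenoids, read -0.45, 4.31 and 0.86, and bco1, for an enzyme that cleaves beta-carotene, -1.36, 1.84 and -2.04. In both, replicate 2 was the most positive sample. Over the list, the median stood at 0.12, 1.22 and -0.01 for replicates 1, 2 and 3. It was 0.44 over all samples and 0.14 without replicate 2.

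Purine synthesis and iridophore genes had the largest share of measured probes among the 4 pathway lists, with 11 of 22 genes in all samples and 65.6% of 32 probes. In replicate 2, 10 of the 11 were positive, against 2 in replicate 1 and 2 in replicate 3. The list median was 0.80 in replicate 2, -0.28 in replicate 1 and -0.22 in replicate 3. It was -0.05 over all samples and -0.42 without replicate 2. Over all 5897 genes 2878, 2890 and 2667 were positive in replicates 1, 2 and 3. The purine nucleoside phosphorylase pnp4a, a marker of iridophores, went the other way in replicate 2, at -0.04, -0.96 and -0.37 (mean -0.46 ± 0.47, SD, n = 3; adjusted p = 0.429 in limma).

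Among the enzymes of new purine synthesis, paics was positive in all samples (0.30, 1.80 and 0.44), with a mean of 0.85 ± 0.83 (SD, n = 3; adjusted p = 0.307 in limma). The first committed enzyme, encoded by ppat, read -0.28, 1.38 and -0.07, and atic, for the last steps to inosine monophosphate, -0.61, 0.93 and -0.82. In these, only replicate 2 was positive. The mitochondrial membrane protein gene mpv17, needed for iridophores in the zebrafish roy orbison mutant, read 1.34, 0.96 and 0.03 (mean 0.78 ± 0.67, SD, n = 3; adjusted p = 0.299 in limma). Of the 11 genes, 2 (paics and mpv17) were at an unadjusted p under 0.05 in limma, both positive. This share is near the 16.2% of all 5897 genes in either direction, of which 443 were positive.

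Neural crest and pigment cell regulators held 12 of 34 genes in all samples, including sox10. In replicate 1, 10 of the 12 were positive, against 4 in replicate 2 and 4 in replicate 3. The gene sox10 was among the positive ones in replicate 1 and the negative ones in the others. Over the list, the median stood at 0.42, -0.62 and -0.16 for replicates 1, 2 and 3. It was -0.13 over all samples and 0.15 without replicate 2. The AP-2 gene tfap2a, a crest and melanophore factor, read 0.07, -1.25 and -0.32, and its relative tfap2e 0.66, -1.26 and -0.73. The crest factor foxd3 stood at 0.62, -0.52 and 0.36. Genes with 1 sign in all samples were snai2 (0.49, 0.30 and 0.46), pax3a (0.77, 0.57 and 0.01) and hdac1 (-0.39, -0.95 and -0.36), a deacetylase needed for melanophore development in zebrafish. Their adjusted p in limma was 0.408, 0.419 and 0.327, and no gene of the list was at an unadjusted p under 0.05, next to 16.2% of all genes. The crest and stem cell factors sox9b (0.01, 0.24 and -0.23) and sox2 (-0.03, 0.13 and -0.47) had mixed signs. In replicate 3 sox2 lay below the 25th percentile of all genes (-0.34).

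**Figure D4:**
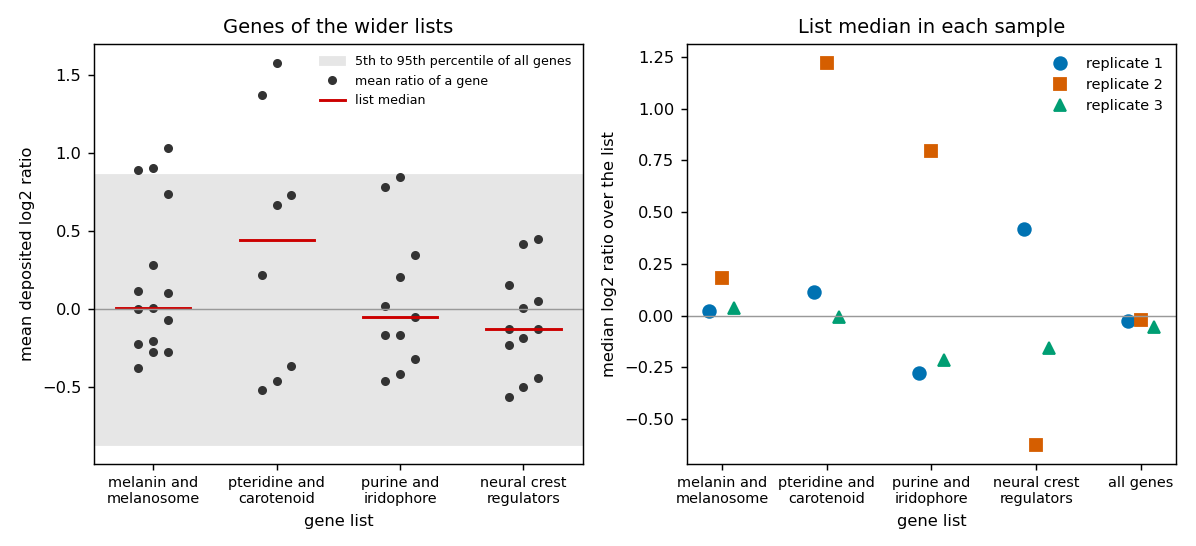
Left, mean deposited log2 ratio (vertical axis) of each gene of 4 lists (horizontal axis), with the list median in red and the 5th to 95th percentile of all genes in grey. Right, median log2 ratio of each list and of all genes (vertical axis) in each sample: replicate 2 stands at 1.22 for the pteridine and carotenoid list, 0.80 for the purine list and -0.62 for the regulators, while the medians of all genes lie between -0.05 and -0.02.

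Markers of other cell types were read beside these values, as ratios, since the table holds no levels. In whole embryos fewer cells of a type and less RNA per cell cannot be told apart. Skeletal muscle, neuron, epidermis and blood markers had a value in all samples for 78.6% to 100% of their probes. For the retinal pigment epithelium, which shares melanosome genes with melanophores, 6 of 9 genes with a probe were measured in all samples. Their median was 0.24, -0.29 and -0.33 in replicates 1, 2 and 3, and rpe65a, the retinoid isomerase that defines the tissue, stood at 0.21, -0.19 and 0.00. The vitamin A receptor gene stra6 alone had 1 sign, negative in all samples (mean -0.51 ± 0.10, SD, n = 3; adjusted p = 0.332 in limma). The other genes scattered in both directions: rpe65b read 0.56, 1.76 and -0.54 and rlbp1b 0.28, -1.70 and 0.40 in replicates 1, 2 and 3. In the same order otx2b read 1.01, -1.20 and -0.11 and bhlhe40 -0.92, 0.33 and -0.74. Of the glia markers, a list drawn up because sox10 also acts in Schwann cells and oligodendrocytes, 3 of 4 genes with a probe were measured. The astroglial gene gfap read -0.47, -0.35 and -0.30, the radial glia gene fabp7a -0.65, -2.73 and -1.06, and the oligodendrocyte factor gene olig2 1.06, -1.80 and 0.44 in replicates 1, 2 and 3. No Schwann cell gene of the list was measured in all samples.

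The neuron, epidermis, blood and muscle medians were farthest from 0 in replicate 2, in different directions and by little in muscle. The neuron median was -1.34 there, against 0.15 and -0.22 in replicates 1 and 3. The epidermis median was 1.08, against 0.12 and -0.18, and the blood median 1.67, against 0.31 and -0.45. Muscle stood at -0.26, against -0.11 and 0.14. None of these markers passed at an adjusted p of 0.05 in limma (lowest 0.12, tnnt3b of muscle). At an unadjusted p under 0.05 in limma there were 2 of 5 epidermis genes and 1 of 6 muscle genes. So were 1 of 6 neuron genes and 1 of 3 glia genes, but 0 of 4 blood genes. Of the retinal pigment epithelium genes 0 of 6 were, and the share over all genes was 16.2%. The 2 epidermis genes had opposite signs: epcam averaged 1.27, and krt5, at -0.69, -0.75 and -0.73, was negative in all samples, also where the list median was positive. The part of these shifts in the ratios of slc24a5, gch2 and the purine list in replicate 2 was not tested.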

How the data were processed

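The authors deposited 1 table with a log ratio per row and sample, used as deposited and taken as log2 from the values: they are signed, centred near 0 and too wide for log10. Natural logarithms are not excluded by the values, and folds assume log2. How background, normalization, dye swaps and missing values were handled is not given in the sources used here. Gene symbols came from the array platform's probe table (21060 probes with 1 gene symbol, 45219 rows), after renumbering by grid position. The renumbering was found earlier from these values and is not independent of them. A gene is the mean of its rows with a value. In a fit, only rows measured in as many samples as that fit requires were averaged. Genes with at least 1 row measured in all 3 samples (5897) were fitted with limma 3.58.1 in R 4.3.3. The model had an intercept only, tested against 0, 2-sided, with Benjamini-Hochberg adjustment over all genes and a threshold of 0.05. The fit was also run on simulated data with shifts larger than any mean ratio of the 10 genes. That run does not show how well ratios of their size are found. Genes with at least 1 row measured in 2 or more samples (6777) were fitted with limma in the same way. The fit of genes measured in all samples had 2 residual degrees of freedom and a prior of 4.6. In the other fit, genes with 2 values, such as slc45a2 and mitfa, had fewer residual degrees of freedom. Signal levels were not used here, and precision is limited by having 3 samples. All 10 genes are named, and of the wider lists genes with a value in all samples. The members and lists were chosen with earlier results of these data known. Alternatives covered scaling, moderation, weights, missing values, row averaging, numbering, small ratios and each replicate left out.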

Additional observations from a re-analysis of the deposited data

How the results depend on the processing

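Of 91 recomputed ratios of the 7 genes measured in at least 2 samples, 76 kept their sign and their side of the threshold. Part of these could not change sign. The ordinary statistic, the filter on small ratios and the fit of genes with a single measured row leave the mean as it is. Neither taking in genes with values in 2 samples nor, for genes with 1 or 2 rows, the median of rows changed a mean. Leaving out replicate 2 cannot move slc45a2 and mitfa, which had no value there. The exception at the threshold was slc45a2 with array weights (2.17, adjusted p = 0.0356 in limma). Its adjusted p lay between 0.0356 and 0.526 over the alternatives, the upper end with the ordinary statistic. Turning all signs gave 0.27 for dct, 0.27 for tyrp1b, -0.89 for slc24a5, -2.03 for slc45a2, 0.71 for mitfa, -0.0495 for sox10 and 0.37 for gch2, by construction. Row numbers as given, which read other spots, gave 0.24 for dct, -0.77 for slc45a2 and 0.28 for mitfa. For sox10 equal scaling gave -0.0029 and array weights -0.038. Leaving out 1 replicate moved sox10 between -0.32 and 0.25 and gch2 between -0.97 and 0.22.

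No measured gene of the 10 was called over all genes in any setting of the fit of genes measured in all samples. The number of genes called over the array, 1, was 50 with equal scaling, 49 with quantile normalization, 42 with array weights, 8 with row numbers as given, 2 with the filter on small ratios, 0 with the ordinary statistic (600 at an unadjusted p of 0.05), 0 among genes with a single measured row (700), which leaves out cyp1a, and 1 to 22 with 1 replicate left out (22 without replicate 3). Called rows, 7, became 62 with rows measured in at least 2 samples, 52 with quantile normalization, 3 with only rows with a gene, 0 with the ordinary statistic (1104 at an unadjusted p of 0.05) and 9 to 48 with 1 replicate left out (48 without replicate 2). The share of the 18 probes with a value in all samples, 44.4%, was 66.7% for at least 1 sample and 38.9% with row numbers as given. Where no construction is named, the cause was not tested. Medians without replicate 2 and the count at an unadjusted p were chosen after seeing the data. No paired analysis was possible because the samples form 1 group, each value already setting exposed against control embryos.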
